A study of Mus musculus with 36 samples.

Results

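C2C12 myoblasts kept in space without gravity were compared with C2C12 myoblasts kept on land, averaging the difference found without nanoceria and the difference found with it. The libraries were chosen by their labelled regime alone: 12 of the 18 libraries with gene counts entered the comparison, 6 from space without gravity and 6 from land, and each side held 3 libraries without nanoceria and 3 with it. The other 6 libraries came from cells in space with gravity and entered only the shared estimate of the spread and a side by side description.

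C2C12 is an established mouse line, derived from the resident stem cells of skeletal muscle, that divides as single myoblasts in rich medium. Nanoceria are nanoparticles of cerium oxide, which can scavenge reactive oxygen species. Cells were seeded at 1500 per square centimetre on coverslips and loaded into automated experiment units, and the reservoir of the treated units held 100 µg/ml of serum-coated nanoceria. Flight units were incubated on the International Space Station at 37 °C and fixed in RNAlater on day 9, and the land experiment was run afterwards in the same hardware, once the flight times and temperatures were known.

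The 4 groups compared were space without gravity, space without gravity and nanoceria, land, and land and nanoceria, each with 3 experiment units of the same line. The p-values below measure only the spread between these units. All groups were labelled as proliferating myoblasts, and the labels name no genetic change. Because all land cultures belonged to a later run, the regime, the flight itself and the run cannot be told apart. RNA was bulk poly(A) RNA, in which fewer cells of a type and less RNA per cell cannot be told apart.

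Myoblasts, which the myogenic factors Myf5 and Myod1 mark, are held in the cycling state by growth factors and adhesion to the substrate. Mechanical load reaches their nucleus through integrins, the actin and microtubule cytoskeleton and the nuclear envelope, and it is read out by transcription factors such as SRF, YAP and AP-1, the dimer of Jun and Fos proteins. On leaving the cycle they fuse and switch on sarcomere genes.

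The 12 libraries held 2986628 to 6783939 counts each, and between 12852 and 16072 genes had a count. Levels below are CPM after TMM scaling of library sizes, in which 3 counts, the limit that a count of 0 allows, correspond to 0.421 to 1.11 CPM depending on the library. Lars2, Gm15564, Gm23935, Gm24270, Gm24187 and Gm25911 together took 40.7% to 70.3% of the counts in the space libraries and 49.6% to 76.3% in the land libraries. The difference of −13.1 percentage points gave an exact 2-sided permutation p of 0.07 within nanoceria levels (adjusted p 0.095 over 3 shares, where 400 reassignments allow no p below 0.005). Of the myoblast markers, Des, Myf5, Itga7 and Vcam1 had counts in all 12 libraries, though Vcam1 went down to 3 counts on each side. Pax7 reached at most 0.602 CPM in space and 2.28 CPM on land, with libraries at 0 on both sides. Cdh15 was at 0.401 to 3.02 CPM in space and 0 to 4.21 CPM on land. Myf5 ranged from 20.0 to 102 CPM in space and from 27.4 to 163 CPM on land, whereas Myod1 had a median of 0 CPM in space and 0.945 CPM on land. Myod1 reached 3.79 CPM in 1 space library and 11.2 CPM in 1 land library and was at 0 in 4 and 2 libraries. Macrophage, endothelial and epithelial markers summed to at most 42.2, 5.91 and 5.55 CPM in any of the 12 libraries, with Adgre1, Aif1, Tie1, Emcn, Epcam and Krt8 at 0. Some of the other members were not at 0. The macrophage marker Cd68 had counts in all 12 libraries, at 5.20 to 23.0 CPM in space and 1.31 to 41.8 CPM on land. Lyz2, Cd14 and Krt19 reached 3.25, 4.09 and 4.44 CPM on land.

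Averaged over the 2 nanoceria levels, 607 of the 11558 genes tested differed between space without gravity and land (5.25%; edgeR quasi-likelihood test, Benjamini-Hochberg adjusted p under 0.05). Of these, 325 (2.81%) were higher in space and 282 (2.44%) were lower. The genes that rose did so by a median log2 fold change of 2.63 and the genes that fell by a median of −1.9997, while the median over all genes tested was −0.02. With DESeq2 size factors in place of TMM the median over all genes was −0.28 and 261 genes were higher and 552 lower, so directions are given relative to the TMM scale. At an unadjusted p under 0.05, 2859 genes passed (24.7%). The smallest changes that passed were 1.25 upward and −1.19 downward on the log2 scale. In data simulated from these libraries the same test recovered 1.49% of 67 genes changed 2-fold, 41.8% of 67 changed 4-fold and 93.9% of 66 changed 16-fold. This was a single run in which the other 11358 genes were unchanged. Recovery at an adjusted p depends on how many genes change, so these rates hold for that setting only. All 6 space libraries lay above all 6 land libraries in 79 of the 325 genes that rose (24.3%), and below them in 120 of the 282 that fell (42.6%). Over all genes tested these shares were 1.23% and 1.68%.

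**Figure D1:**
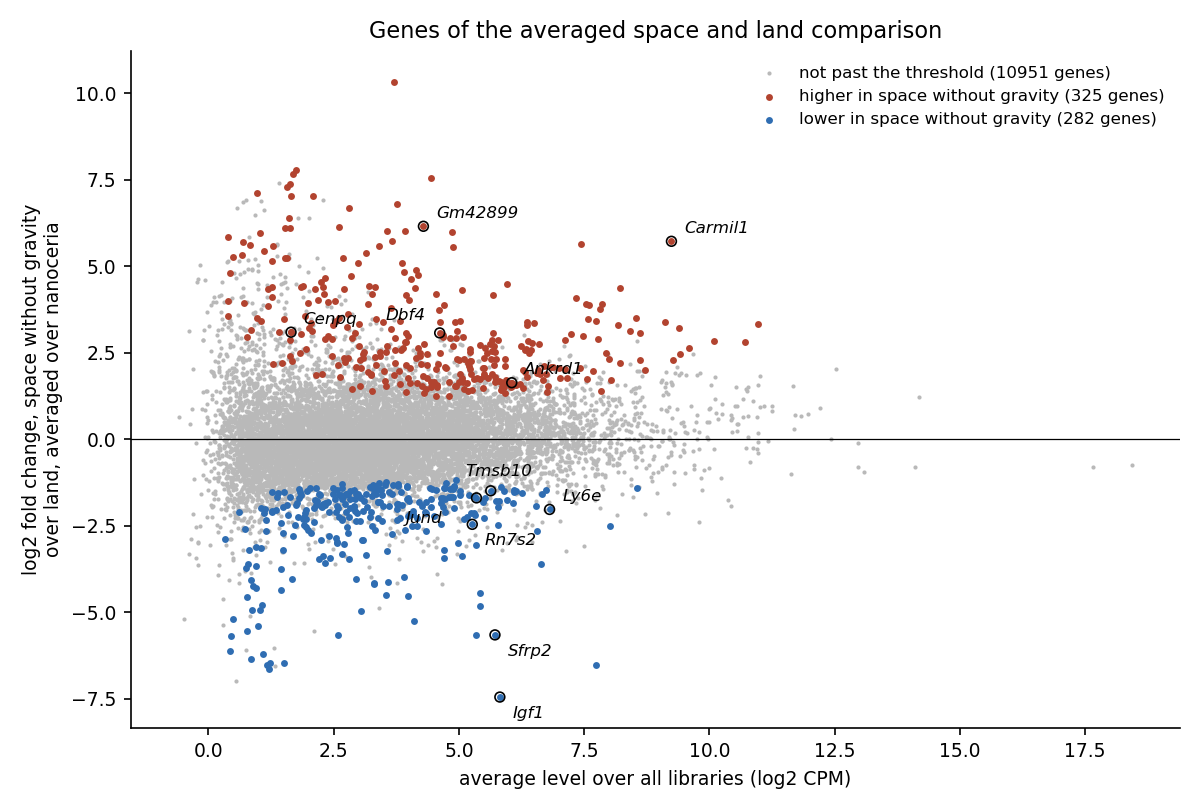
Each point is 1 of the 11558 genes tested, with its average level over the libraries on the x axis (log2 CPM) and its log2 fold change of space without gravity over land, averaged over nanoceria, on the y axis. The 325 genes that rose are red and the 282 that fell are blue; circled genes are named in the text, and Carmil1 stands out as both abundant and strongly raised.

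Among the 12 protein-coding genes that rose with the smallest p, Carmil1 had the largest change. Carmil1 encodes a regulator of actin capping protein that works at the leading edge of moving cells, and it lies on the minus strand of chromosome 13, positions 24012344 to 24280795 of GRCm38.p6. Its level was 590.2, 106 and 1217 CPM in the space libraries without nanoceria and 841, 89.1 and 1139.6 CPM in those with it. On land it was 4.07, 12.5 and 18.4 CPM without nanoceria and 15.5, 15.6 and 9.76 CPM with it. The 2 sides did not overlap, and even the lowest space library was several times the highest land library. The averaged log2 fold change was 5.72 ± 0.83 (SE; edgeR quasi-likelihood test, adjusted p 0.00365), with 5.78 and 5.66 at the 2 nanoceria levels. Replicate 2 of each space group was the lowest of its group.

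Cops5, the catalytic subunit of the COP9 signalosome, which removes NEDD8 from cullin ubiquitin ligases, ranged from 43.8 to 526 CPM in space and from 7.81 to 21.7 CPM on land. The sides did not overlap, and its log2 fold change was 3.91 ± 0.64 (adjusted p 0.00773). Ddx42, an RNA helicase linked to the splicing machinery, ranged from 46.6 to 598 CPM in space and from 10.8 to 28.2 CPM on land, again without overlap. Atf7, a leucine zipper factor that binds cyclic AMP response elements, was at 39.9 to 164 CPM in space and 9.46 to 30.4 CPM on land. The lowest space library for Atf7 was replicate 2 without nanoceria, and it still exceeded every land library.

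The cell-cycle kinase subunit Dbf4, which activates Cdc7 to fire replication origins, behaved less evenly. It was at 34.9, 15.8 and 43.3 CPM in space without nanoceria and 39.0, 72.0 and 60.4 CPM in space with it. On land it was at 18.5, 16.4 and 11.8 CPM without nanoceria and at 0.740, 3.41 and 0.325 CPM with it. The land and nanoceria libraries were thus the low ones, with 2 counts in replicate 1 and 1 count in replicate 3, at the detection limit. Space replicate 2 without nanoceria overlapped with the land libraries without it. Its averaged log2 fold change was 3.07 ± 0.53 (adjusted p 0.00874), made up of 1.00 without nanoceria and 5.14 with it, and the difference between those 2 values had an unadjusted p of 0.000778 and an adjusted p of 0.441.

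The remaining coding genes that rose were Gpr141, an orphan receptor, the splicing-linked factor Paxbp1, the transporter Mfsd4a, the phosphatase subunit Ppp2r2d, the GTPase-activating protein Arhgap29, the signalling adaptor Sh2b3 and the membrane protein Tmem245. Their log2 fold changes ran from 2.32 for Arhgap29 to 4.32 for Mfsd4a. Arhgap29, which switches off small GTPases that act on actin, was at 30.1 to 70.6 CPM in space and 6.18 to 13.1 CPM on land. Of the 12 genes, 8 had sides that did not overlap, and all 12 passed the threshold in each of the 12 fits that left out 1 library. When the share taken by the dominant genes entered as a covariate, 3 of the 12 (Paxbp1, Ddx42 and Tmem245) no longer passed.

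Among the 12 coding genes that fell with the smallest p, the steadiest was Ly6e, a small membrane-anchored protein of the Ly6 family, on chromosome 15 at 74955051 to 74959905. It was at 65.0, 50.7 and 41.0 CPM in space without nanoceria and 65.4, 49.7 and 67.9 CPM in space with it. On land it was at 217, 228 and 233 CPM without nanoceria and at 187, 185 and 333 CPM with it. All 6 land libraries lay above all 6 space libraries with little spread on either side. Its log2 fold change was −2.03 ± 0.36 (edgeR quasi-likelihood test, adjusted p 0.00984), with −2.11 and −1.94 at the 2 nanoceria levels.

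Rhob, a small GTPase that acts on actin and endosomes and is induced by stress and growth factors, held between 17.3 and 28.3 CPM in space (median 19.1). On land it spread from 43.0 to 239 CPM (median 105). The space libraries were tightly grouped and the land libraries were not, yet the sides did not overlap, and the log2 fold change was −2.47 ± 0.46 (adjusted p 0.0111).

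Kdelr1, a receptor that returns resident proteins to the endoplasmic reticulum, was at 1.86 to 15.1 CPM in space and 16.1 to 65.7 CPM on land (log2 fold change −2.50 ± 0.45), without overlap. Vapb, which tethers the endoplasmic reticulum to other membranes, fell by 2.65 ± 0.51 and Aup1, a lipid droplet and protein disposal factor, by 1.82 ± 0.37 on the log2 scale. Aup1 shares 23.0% of its exon bases with Htra2 on the opposite strand.

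Sobp, a nuclear protein known from inner ear development, fell by 5.67 ± 1.02 on the log2 scale (adjusted p 0.01), but it ranged from 2.53 to 319 CPM on land and overlapped with the space range of 0.339 to 9.27 CPM. Gfer, Sap30l, Guk1 and Mmp2 were also among the 12, with changes from −1.68 to −2.20. Of these 12 genes, 6 had sides that did not overlap, and 7 passed the threshold in each fit that left out 1 library. With that share as a covariate 9 of the 12 no longer passed, whereas Ly6e and Sobp still did.

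**Figure D2:**
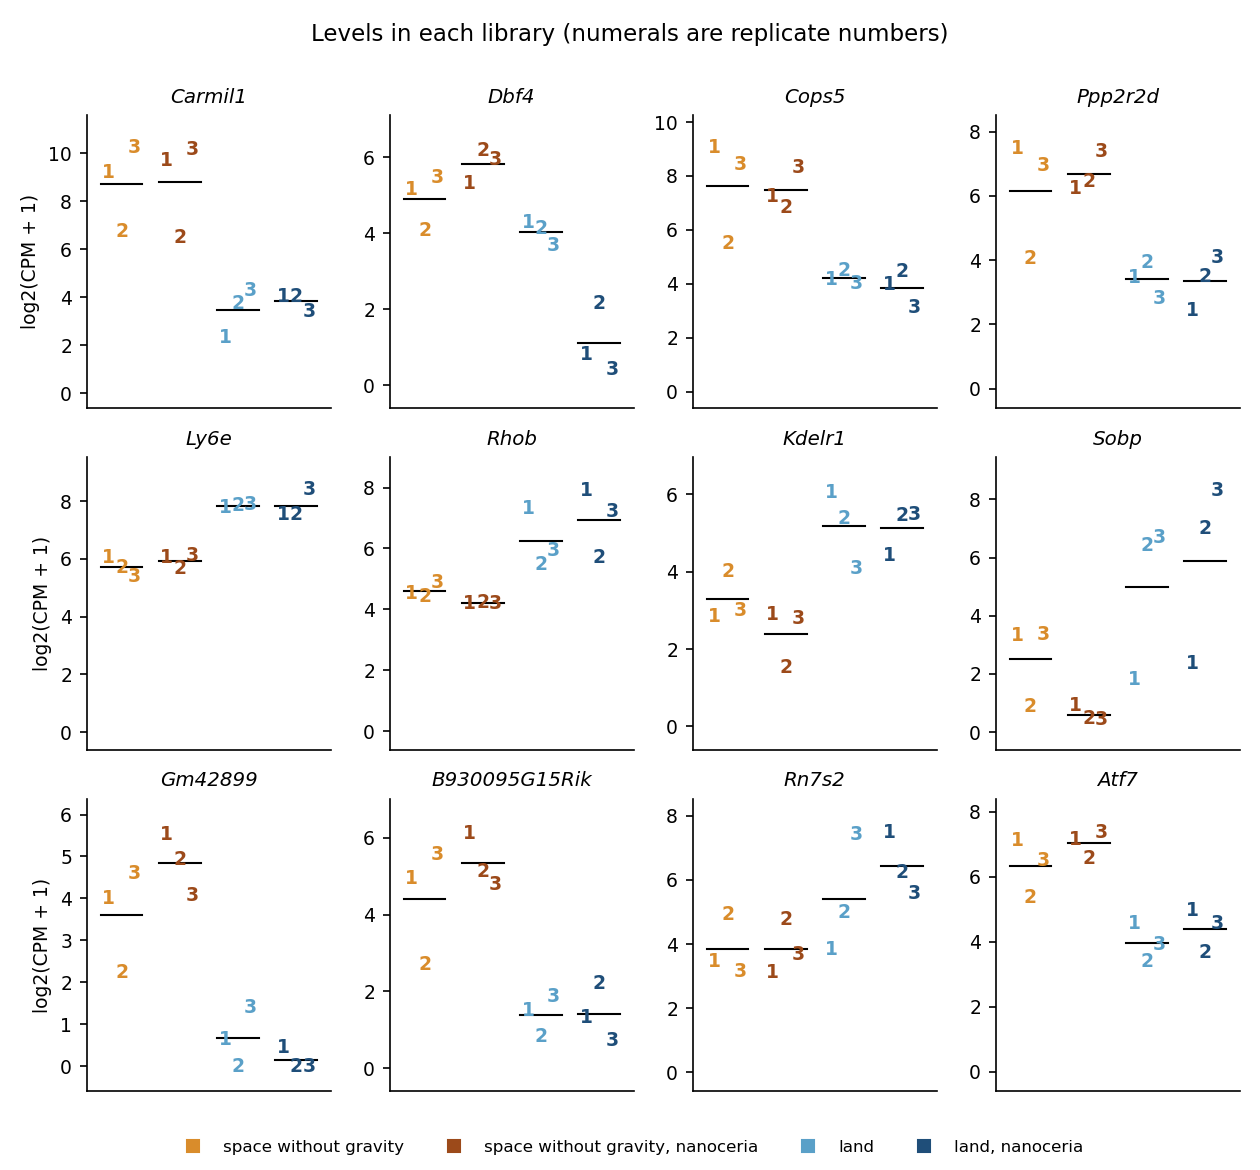
Levels of 12 named genes as log2(CPM + 1), with the 4 groups along the x axis of each panel; each numeral is 1 library and gives its replicate number, and the bar is the mean of the 3 libraries on the plotted scale. Among the 3 space libraries without nanoceria, replicate 2 is the lowest for Carmil1, Cops5, Ppp2r2d, Atf7 and Gm42899, while the tight space groups of Ly6e and Rhob sit below every land library.

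Some classes of noncoding gene models were called in 1 direction only by the edgeR test. TEC gene models are transcripts whose coding status still needs experimental evidence, and many lie inside introns of known genes. Of the 146 tested, 19 rose (13.0%, against 2.81% of all genes) and none fell. Their median log2 fold change was 1.62. Of 25 sense-intronic transcripts 4 rose, and of 100 antisense transcripts 9 rose, with none called lower in either class. Other noncoding classes were called both ways, with 11 of 138 lincRNAs higher and 4 lower and 7 of 468 processed pseudogenes higher and 8 lower, and protein-coding genes split evenly, with 264 higher and 265 lower of 10430. Together the TEC models took 0.113% to 0.339% of the counts outside the dominant genes in space and 0.0860% to 0.292% on land, a difference of 0.0847 points (exact 2-sided permutation p 0.095, adjusted p 0.095).

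Gm42899 is such a TEC model, on the plus strand of chromosome 3 at 53083219 to 53085885, inside an intron of Lhfp. It was at 14.8, 3.69 and 23.2 CPM in space without nanoceria and at 45.0, 29.3 and 15.9 CPM with it. On land it was at 0.562, 0 and 1.64 CPM without nanoceria and at 0.370, 0 and 0 CPM with it, so every land library was at or near the detection limit and no space library was. The log2 fold change was 6.15 ± 0.79 (edgeR quasi-likelihood test, adjusted p 0.00272, the smallest of the comparison). For Lhfp itself, counted over its exons, the log2 fold change was −0.56 ± 0.74 (adjusted p 0.677).

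B930095G15Rik, a sense-intronic transcript within Farp1 on chromosome 14 at 121248706 to 121253971, was at 5.54 to 68.0 CPM in space and 0.651 to 3.61 CPM on land. Its log2 fold change was 4.19 ± 0.64 (adjusted p 0.00476), and that of Farp1 was −0.43 ± 0.46. Gm28370, an antisense transcript on chromosome 12 at 81492199 to 81497015, rose by 5.55 ± 0.90 (adjusted p 0.00754), from 0.325 to 1.64 CPM on land to 2.04 to 103 CPM in space. The library kit named in the labels does not mark the strand, so reads of an antisense transcript and of its partner cannot be separated here.

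Across all TEC and sense-intronic models that lie within an intron of a coding gene on the same strand, 16 of 115 rose and their median log2 fold change was 1.995. The hosts of those that rose included Dst, Agap1, Usp33, Pds5a, Atxn2, Wasl and Chd2, and none of the tested hosts of a called model was itself called. Over the 108 pairs with a tested host, 2 hosts were higher (Capza1 and Rfc1), 1 was lower (Setd7) and the median host change was 0.11. The difference between model and host within a pair was not tested. Whether reads from unspliced RNA contributed to these counts was not tested.

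The noncoding genes that fell with the smallest p were Rn7s2, a signal recognition particle RNA that guides secreted proteins to the endoplasmic reticulum, Tmem134, listed as a processed transcript, and the processed pseudogene Gm14303. Rn7s2 was at 7.57 to 29.5 CPM in space and 13.3 to 178 CPM on land, with overlap, and fell by 2.46 ± 0.63 on the log2 scale (adjusted p 0.0349). None of the 3 kept its call when each library was left out in turn. Rn7s2 has near-identical copies, so its counts are uncertain.

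Gene lists for myoblast processes were then described by their counts, beside 2.81% of all genes higher and 2.44% lower. Of all 11558 genes tested, 5666 had a positive and 5891 a negative fold change. Cell-cycle genes lay mostly above land. Of 37 mitosis and kinetochore genes tested, 4 rose and none fell, 29 had a positive fold change and the median was 0.94. The edgeR test at an unadjusted p under 0.05 gave 14 higher and 1 lower, where 12.3% and 12.5% of all genes passed that mark. The 4 were Cenpq, a kinetochore protein, the spindle checkpoint proteins Bub1 and Mad2l1, and Anln, a scaffold of the cleavage furrow.

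Cenpq was at 1.604, 2.68 and 2.32 CPM in space without nanoceria and 5.68, 11.1 and 14.7 CPM with it. On land Cenpq was at 1.97, 0.511 and 0.657 CPM without nanoceria and at 0, 0.401 and 0.325 CPM with it. The land values with nanoceria were 0, 2 and 1 counts, at the detection limit. Cenpq was high chiefly in space with nanoceria and overlapped between the sides without it, and its averaged log2 fold change was 3.09 ± 0.54 (adjusted p 0.00912). Anln did not overlap, with 5.21 to 15.1 CPM in space and 0.601 to 4.23 CPM on land (2.25 ± 0.59, adjusted p 0.0384). Bub1 and Mad2l1 overlapped, with changes of 2.61 ± 0.70 and 1.89 ± 0.52 (adjusted p 0.039 and 0.042). Mki67, the proliferation antigen, was at 8.97 to 66.4 CPM in space and 3.84 to 15.8 CPM on land and did not pass (1.17 ± 0.65, adjusted p 0.276), nor did the mitotic kinase Cdk1 (0.58 ± 0.56, adjusted p 0.545).

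Of 37 DNA replication genes, Dbf4 and the clamp loader subunit Rfc1 rose and none fell, with a median of 0.62. Rfc1 was at 23.7 to 143 CPM in space and 18.8 to 35.95 CPM on land (1.67 ± 0.41, adjusted p 0.0314). Its call was lost in 7 of the 12 fits that left out 1 library. It was also lost with the covariate for the dominant genes and without both land libraries numbered 3. The helicase subunit Mcm6 showed −0.06 ± 0.51 (adjusted p 0.959). Replication-dependent histone mRNAs lack a poly(A) tail, and 14 of 68 such genes could be tested here. Hist1h2ac rose (3.62 ± 0.84, adjusted p 0.025) from at most 1.31 CPM on land to 0.671 to 7.84 CPM in space. The number of mitosis genes called was 1 to 5 over the fits that left out 1 library, 1 after trends with GC content and gene length were removed, and 4 when both land libraries numbered 3 were left out. DESeq2 size factors gave 1 higher and 1 lower, and the covariate for the dominant genes left 1.

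Immediate early genes fell in part. These are the genes switched on within minutes of serum or mechanical stimulation. Of 22 tested, Jun, Junb and Jund fell and none rose, and the median was −0.62. Jun was at 20.1, 12.9 and 29.9 CPM in space without nanoceria and 34.6, 23.0 and 17.9 CPM with it. On land Jun was at 72.3, 42.2 and 74.9 CPM without nanoceria and at 70.3, 44.1 and 135 CPM with it. The sides did not overlap and the log2 fold change was −1.66 ± 0.39 (adjusted p 0.0262).

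Junb did not overlap either, with 12.3 to 20.7 CPM in space and 24.6 to 84.8 CPM on land (−1.42 ± 0.36, adjusted p 0.0333). Jund overlapped through land replicate 3, at 19.1 CPM, while the other land libraries held 49.1 to 123 CPM and the space libraries 17.9 to 32.3 CPM (−1.70 ± 0.40, adjusted p 0.025). The number called ranged from 0 to 4 when 1 library was left out. It was 0 without replicate 1 or 3 of space without gravity, replicate 3 of space without gravity and nanoceria, or land replicate 1. The list held 1 called gene without land and nanoceria replicate 3 and 1 after the GC and length trends were removed. Jun, Junb and Jund each lost the call once those trends were removed, so the gene called there was another member. Jun and Junb also lost the call without both land libraries numbered 3. None was called when the covariate for the dominant genes was added, where the list median was −0.06. The exons of Jun, Junb and Jund are 55.5%, 62.6% and 67.1% GC, against a median of 49.0% for all genes tested.

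In the nuclear lamina and cytoskeleton list 5 of 28 members fell, with none that rose and a median of −0.60. They were Emd, or emerin, an inner nuclear membrane protein that binds lamins, the beta-tubulins Tubb2a, Tubb2b and Tubb4b, and Tmsb10, which sequesters actin monomers. Tubb4b was at 42.3, 49.5 and 30.8 CPM in space without nanoceria and 45.4, 41.6 and 47.2 CPM with it. On land Tubb4b was at 265, 129 and 85.4 CPM without nanoceria and at 69.6, 110.2 and 95.4 CPM with it, so the sides did not overlap (−1.50 ± 0.39, adjusted p 0.0363).

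Tmsb10 was at 20.7 to 45.0 CPM in space and 55.5 to 135 CPM on land (−1.49 ± 0.36, adjusted p 0.0289) and Emd at 5.42 to 8.91 and 11.7 to 132 CPM (−2.27 ± 0.51, adjusted p 0.0231), both without overlap. Tubb2a, which falls outside the rule for named genes and was chosen after its values were seen, was at 4.81 to 10.0 CPM in space and 10.5 to 88.2 CPM on land (−1.87 ± 0.51, adjusted p 0.042). Reads of beta-tubulin genes that match several family members make their individual values uncertain. The number called ranged from 0 to 5 when 1 library was left out. It was 0 without replicate 1 or 3 of either space group or without land replicate 1. The list had 5 members called when both land libraries numbered 3 were left out, 1 without land and nanoceria replicate 3 alone, 3 after the GC and length trends were removed, and none when the covariate for the dominant genes was added.

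The 250 bases upstream of the start site are shown for the AP-1 genes Jun and Junb and the tubulin genes Tubb2a and Tubb4b, as members of 2 lists in which 3 or more genes fell (RefSeq sequences on GRCm38.p6, 5′ to 3′ on the gene's strand; capitals mark CCAAT, TGACNTCA and TATAAA, searched on both strands).
Jun, chr4:95052223-95052472, minus strand: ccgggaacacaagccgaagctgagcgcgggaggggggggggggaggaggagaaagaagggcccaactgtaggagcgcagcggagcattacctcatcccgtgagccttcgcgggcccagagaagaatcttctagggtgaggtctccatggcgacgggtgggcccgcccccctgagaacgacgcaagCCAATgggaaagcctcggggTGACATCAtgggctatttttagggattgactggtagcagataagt
Junb, chr8:84978749-84978998, minus strand: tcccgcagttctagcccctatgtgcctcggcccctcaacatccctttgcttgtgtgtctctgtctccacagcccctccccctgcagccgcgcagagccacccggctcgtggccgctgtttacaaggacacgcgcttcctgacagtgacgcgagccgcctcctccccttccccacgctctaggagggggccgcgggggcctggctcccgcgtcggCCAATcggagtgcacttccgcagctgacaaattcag
Tubb2a, chr13:34078009-34078258, minus strand: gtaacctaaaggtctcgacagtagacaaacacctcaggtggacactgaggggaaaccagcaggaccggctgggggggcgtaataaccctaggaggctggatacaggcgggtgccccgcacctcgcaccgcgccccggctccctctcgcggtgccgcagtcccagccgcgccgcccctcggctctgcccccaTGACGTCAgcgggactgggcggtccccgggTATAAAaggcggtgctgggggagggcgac
Tubb4b, chr2:25224703-25224952, minus strand: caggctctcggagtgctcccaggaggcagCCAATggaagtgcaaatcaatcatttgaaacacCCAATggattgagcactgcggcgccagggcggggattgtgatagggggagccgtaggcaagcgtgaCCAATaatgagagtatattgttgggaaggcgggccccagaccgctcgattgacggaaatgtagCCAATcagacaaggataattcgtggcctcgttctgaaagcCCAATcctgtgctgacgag

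In these windows CCAAT, the core bound by the factor NF-Y, occurred 5 times for Tubb4b and 1 time each for Jun and Junb. TGACNTCA, an AP-1 and cyclic AMP response element pattern, occurred 1 time each for Jun and Tubb2a, and Tubb2a also held 1 TATAAA. Jund, which also fell, is not printed because its RefSeq start differs from the gene model, and its RefSeq window held 0 of each pattern. No RefSeq promoter entry was found for Tubb2b. Of 32817 promoter windows of the same length, 33.8% held CCAAT on either strand, 7.49% held TGACNTCA and 12.4% held TATAAA. A match describes the letters and was not tested as a binding site.

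**Figure D3:**
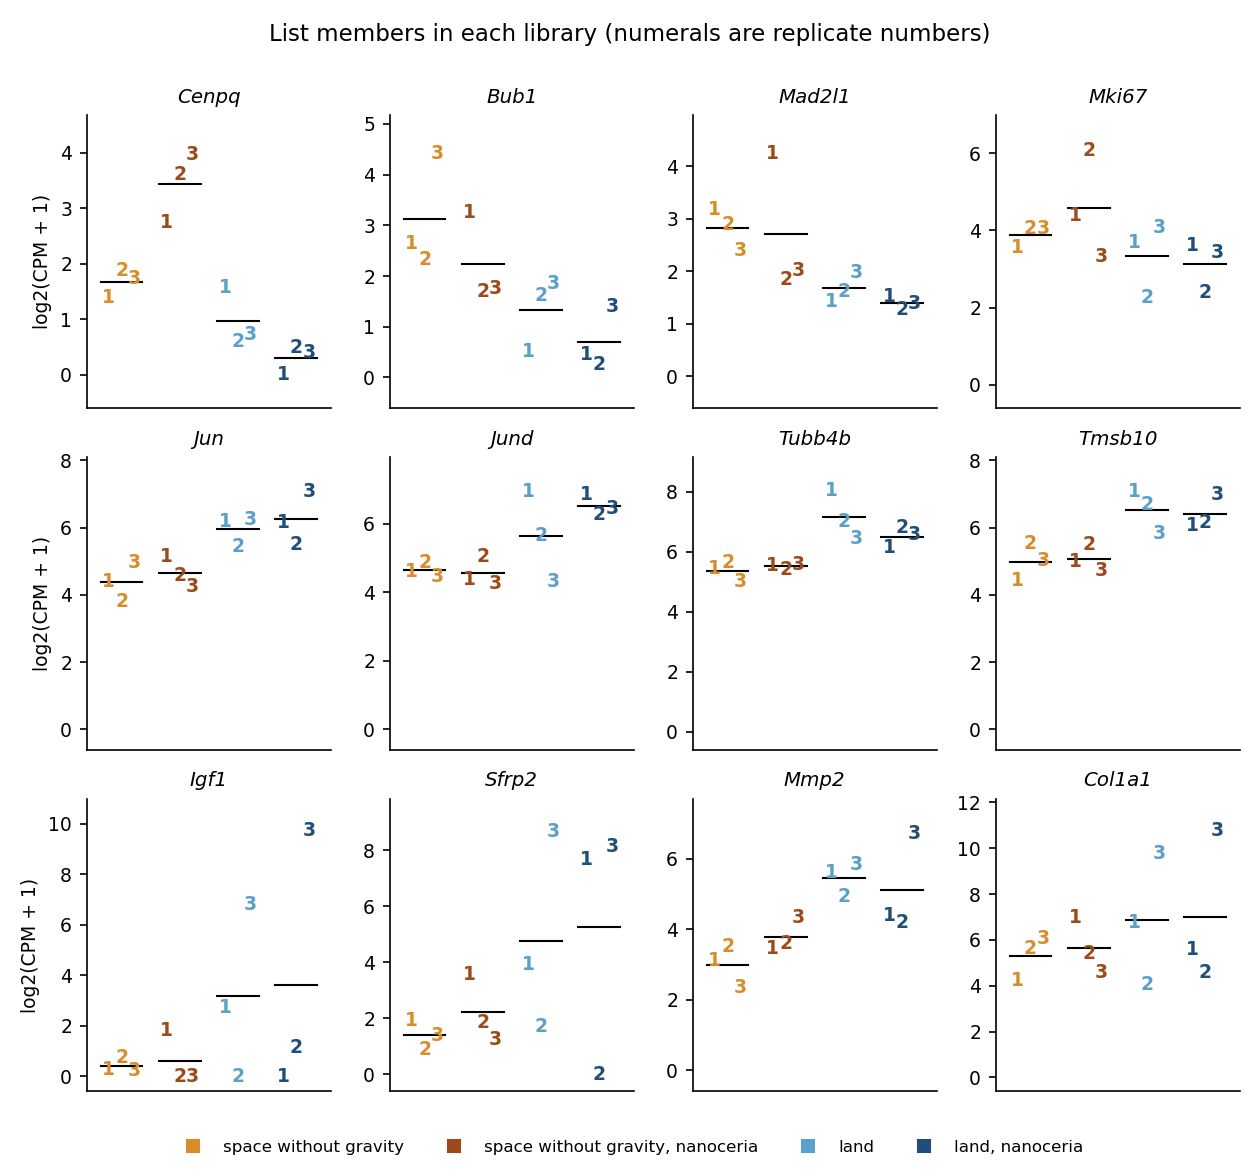
Levels of 12 list members as log2(CPM + 1) in the 4 groups, with each numeral 1 library by replicate number and the bar the mean of 3 libraries on the plotted scale; Mki67 and Col1a1 did not pass the test and the other 10 did. Jun, Tubb4b and Tmsb10 sit lower in every space library than in any land library, whereas Igf1, Sfrp2 and Col1a1 have their highest land values in the libraries numbered 3.

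Several matrix and growth factor genes were high in only some of the land libraries. Igf1, the growth factor that drives myoblast division and muscle growth, was at 0.201, 0.671 and 0.178 CPM in space without nanoceria and 2.47, 0 and 0 CPM with it. On land Igf1 was at 5.62, 0 and 112 CPM without nanoceria and at 0, 1.20 and 846 CPM with it. Land and nanoceria replicate 3 alone held 87.0% of its land counts. Land replicates 1 and 3 also lay above every space library, and the other 3 land libraries lay within the space range. The log2 fold change was −7.45 ± 1.92 (adjusted p 0.0349), and Igf1 no longer passed when both land libraries numbered 3 were left out.

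Sfrp2, a secreted Wnt antagonist of mesenchymal cells, was at 0.839 to 10.8 CPM in space. On land Sfrp2 was at 14.0, 2.30 and 405 CPM without nanoceria and at 199.9, 0 and 280 CPM with it (−5.65 ± 1.31, adjusted p 0.0249). Nkd2, a Wnt feedback inhibitor, was at 162 CPM in land and nanoceria replicate 3 and at most 20.7 CPM elsewhere (−4.51 ± 1.02, adjusted p 0.0232). Both calls, 2 of 16 genes in the Wnt list, were lost without the land libraries numbered 3.

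No collagen or matrix protein gene passed the test, with 0 of 38 called in either direction by edgeR, although 15 had a lower and 1 a higher value at an unadjusted p under 0.05. The median log2 fold change of that list was −0.79. Without both land libraries numbered 3 it was 0.19, so the sign of the list's median turned. With DESeq2 size factors 4 were called lower and with the DESeq2 test 13, and limma voom called 2 higher and 1 lower.

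Col1a1, the main fibrillar collagen, was at 17.8 to 123 CPM in space. On land Col1a1 was at 108, 15.9 and 877 CPM without nanoceria and at 46.6, 23.2 and 1749.5 CPM with it (−3.09 ± 1.03, adjusted p 0.08). The other fibrillar collagen Col3a1 and fibronectin (Fn1) had log2 fold changes of −0.02 ± 0.60 and 0.01 ± 0.48, with both sides spread over the same range.

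The land libraries numbered 3 also held the highest summed fibroblast and osteoblast markers. The summed level of 9 fibroblast markers was 59.4 to 135 CPM in space and 119.9 to 251 CPM on land, that of 7 osteoblast markers 14.8 to 74.0 and 11.2 to 208 CPM, and that of 8 adipocyte markers 6.62 to 15.1 and 11.1 to 110.02 CPM. None of 4 tested fibroblast and 3 tested osteoblast markers passed the test, and of 3 tested adipocyte markers Cebpa fell (−2.31 ± 0.49, adjusted p 0.0192). The list members Adipoq, Lep, Sp7, Ibsp and Dmp1 were at 0 in all 12 libraries, whereas Spp1, Runx2, Bglap, Lpl, Pparg and Cebpa had counts in all 12. Spp1 was at 10.8 to 51.1 CPM in space and 7.21 to 194 CPM on land, and Runx2 at 2.23 to 21.8 and 2.81 to 19.5 CPM. Lpl was at 3.61 to 8.89 CPM in space and 1.60 to 78.8 CPM on land. The part of these markers in the matrix and growth factor values was not tested.

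Matrix proteases did not move as a list. Of 18 tested, the aggrecanases Adamts5 and Adamts1 rose and the metalloproteinases Mmp2 and Mmp15 fell. Adamts5 was at 17.6 to 77.5 CPM in space and 2.63 to 20.6 CPM on land (2.13 ± 0.46, adjusted p 0.0202). Mmp2, a gelatinase, was at 4.10 to 19.1 CPM in space and 17.2 to 105 CPM on land (−2.20 ± 0.48, adjusted p 0.0202). Over the 12 fits that left out 1 library, Adamts1 lost its call in 10, Mmp15 in 9, and Adamts5 and Mmp2 in 2 each. The IGF-binding protein Igfbp3 fell (−1.93 ± 0.53, adjusted p 0.042), and its sides overlapped. In the TGF-beta and BMP list, the receptors Bmpr2 (1.84 ± 0.48) and Tgfbr1 (2.42 ± 0.65) rose and the target Id3 fell (−3.32 ± 0.95, adjusted p 0.0499), with 76.2 CPM in land and nanoceria replicate 3 and at most 8.87 CPM in any other of the 12 libraries. When 1 library was left out, Igfbp3, Bmpr2 and Tgfbr1 each lost the call in 9 of the 12 fits and Id3 in 10.

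For lists of their size, the mechanosensing and muscle genes called were near the shares over all genes, 2.81% higher and 2.44% lower. Of 27 SRF and YAP targets only Ankrd1, a titin-associated stretch-response protein, passed (3.70%, against 2.81% of all genes higher). It was at 72.2, 55.0 and 121 CPM in space without nanoceria and 156, 104 and 103 CPM with it. On land Ankrd1 was at 36.5, 36.6 and 48.3 CPM without nanoceria and at 23.3, 33.9 and 19.9 CPM with it, below every space library (1.63 ± 0.39, edgeR quasi-likelihood test, adjusted p 0.0277). The call of Ankrd1 was lost in 7 of the 12 fits that left out 1 library, and with the covariate for the dominant genes. None of 28 focal adhesion genes, 21 myoblast identity genes and 10 differentiation genes passed. At an unadjusted p under 0.05, the edgeR fit gave 1 higher and 1 lower, 2 higher and 1 lower, and 0 higher and 1 lower. Over all genes tested, 12.3% were higher and 12.5% lower at that mark. Smooth muscle actin Acta2 showed 0.29 ± 0.50 (adjusted p 0.759), and Ncam1, the adhesion molecule of myoblasts, 1.46 ± 0.57 (adjusted p 0.124).

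Oxidative stress genes were of interest because nanoceria are antioxidants. None of 20 antioxidant enzymes passed, and of 25 NRF2 targets only the glutathione transferase Gstm1 did, falling by 1.50 ± 0.39 on the log2 scale (adjusted p 0.0349). Of the NRF2 targets, 19 of 25 had a negative fold change, the median was −0.52, and 7 were lower and 0 higher at an unadjusted p under 0.05. The number called lower was 4 with DESeq2 size factors, 7 with the DESeq2 test, 5 with voom and 5 with a mean of at least 50 counts, and 0 with only the 12 libraries compared, with the covariate for the dominant genes or after the GC and length trends were removed. Gstm1 was at 16.8 to 57.9 CPM in space and 51.1 to 180 CPM on land, and its call was lost in 7 of the 12 fits that left out 1 library. Heme oxygenase Hmox1, an NRF2 target induced by oxidants, was at 131 to 288 CPM in space and 56.2 to 323 CPM on land and did not pass (0.69 ± 0.46, adjusted p 0.362), nor did Nqo1 (−1.80 ± 0.64, adjusted p 0.0954). Metallothionein Mt1 was at 80.2 to 173 CPM in space and 189 to 431 CPM on land, without overlap, yet it did not pass (−1.30 ± 0.50, adjusted p 0.114). None of 25 p53 targets passed, and Cdkn1a, the p53-driven cell-cycle inhibitor, showed −0.69 ± 0.40 (adjusted p 0.29).

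All 11 tested genes of the mitochondrial genome had negative fold changes, with a median of −0.66, and 1 passed: the ATP synthase subunit mt-Atp8, which shares exon bases with mt-Atp6 (−2.67 ± 0.76, adjusted p 0.0488). The call of mt-Atp8 was lost in 10 of the 12 fits that left out 1 library. As a share of the counts outside the dominant genes, the mitochondrial genome took 0.364% to 0.787% in space and 0.174% to 1.45% on land. The difference was −0.434 points with an exact 2-sided permutation p of 0.065 (adjusted p 0.095). Without both land libraries numbered 3 the median over the 11 genes was −0.06 and none was called. None of 35 nuclear respiratory chain genes and 41 cytosolic ribosomal protein genes passed, with medians of −0.24 and −0.21.

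**Figure D4:**
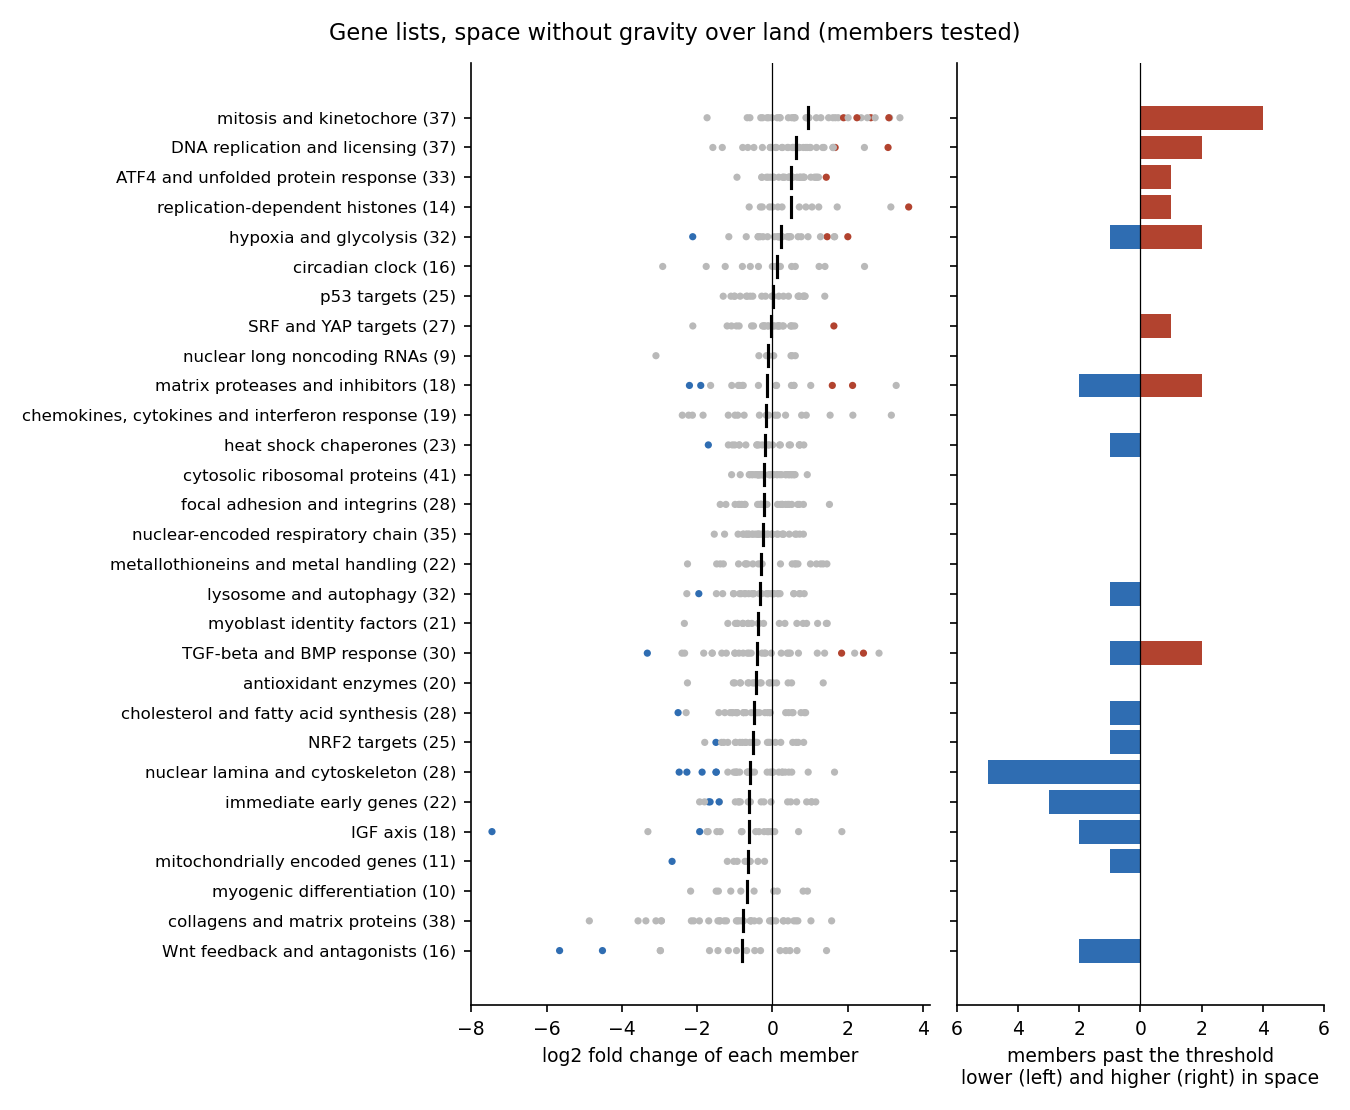
For each gene list, the left panel gives the log2 fold change of every tested member (space without gravity over land; red rose, blue fell, grey did not pass) with a black bar at the median, and the right panel counts the members that fell and rose. Mitosis and DNA replication genes lie furthest to the right, with medians of 0.94 and 0.62, and the nuclear lamina and cytoskeleton list holds 5 members of 28 that fell.

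The genes that rose and fell differed in base composition. The exons of the genes that rose had a median GC content of 45.1% and those of the genes that fell 55.5%, against 49.0% over all genes tested. Among the 2311 genes with the lowest GC, 118 rose and 7 fell, and among the 2311 with the highest GC 17 rose and 154 fell. Across the 5 groups of genes ordered by GC, the median fold change on the log2 scale went from 0.40 to −0.61. Genes that rose also had longer exons in total, with a median of 4801 bases against 2743 for those that fell and 4059 for all. After smooth trends with GC content and length were removed from each library, 387 genes passed, 196 higher and 191 lower, and 307 of them were among the 607.

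**Figure D5:**
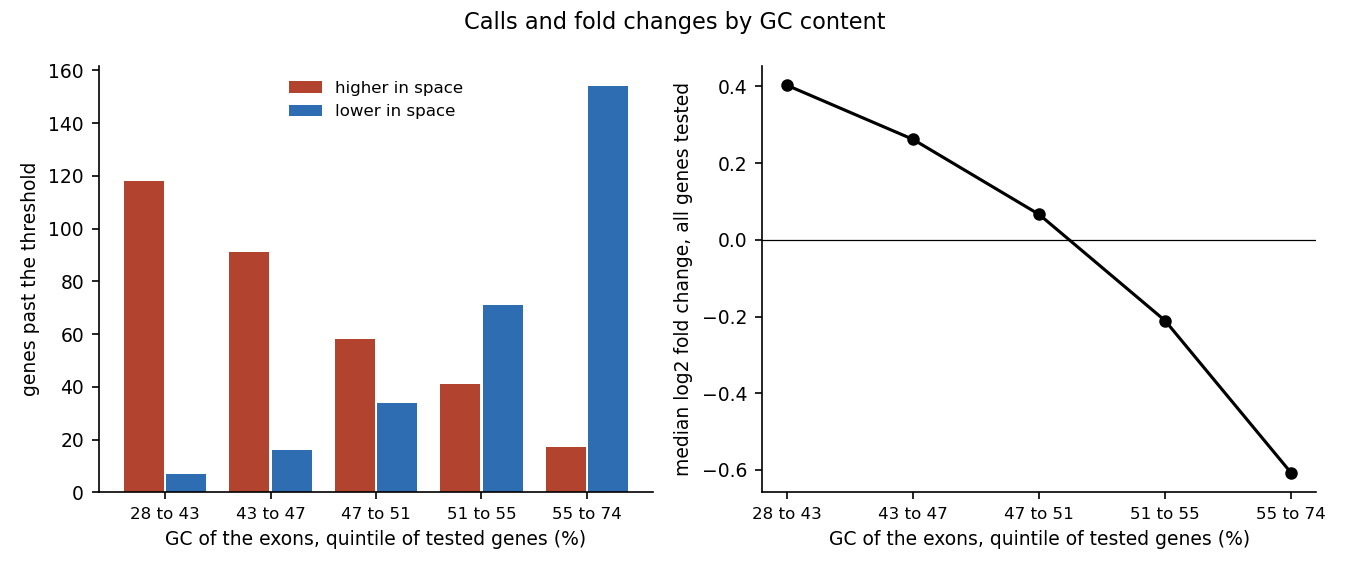
Genes tested are split into 5 equal groups by the GC content of their exons (x axis, percent); the left panel counts the genes that rose and fell and the right panel gives the median log2 fold change of all tested genes in the group. Counts of genes that rose drop from 118 to 17 as GC rises, and counts of genes that fell climb from 7 to 154.

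The 2 nanoceria levels were then read separately. Without nanoceria, 0 of 11558 genes passed (0.0%; edgeR quasi-likelihood test, smallest adjusted p 0.152), although 1504 had an unadjusted p under 0.05 (13.0%; 6.72% higher and 6.29% lower), and DESeq2 called 208 and limma voom 243. With nanoceria, 5 passed (0.0433%): Gm42899, Gm43062, Dbf4 and Cenpq were higher (0.0346%) and 1 gene was lower (0.00865%), beside 19.2% at an unadjusted p under 0.05 (10.1% higher and 9.08% lower). Of these Gm43062 lies outside the rule for named genes and was named after its values were seen. The test of whether the space and land difference depended on nanoceria called 0 genes (0.0%, smallest adjusted p 0.441), with 785 at an unadjusted p under 0.05 (6.79%; 3.13% higher and 3.66% lower), 37 by DESeq2 and 0 by voom. Of the genes called in the average, 323 of the 325 that rose and all 282 that fell had the same sign at both levels, a property that averaging favours. An unadjusted p under 0.05 at both levels was reached by 219 and 195 of them.

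Single libraries bore unequally on these calls. Replicate 2 of space without gravity was the lowest space library for 180 of the 325 genes that rose, and replicate 2 of space without gravity and nanoceria for 78. They also had the highest shares of the 6 dominant genes among the space libraries, 70.3% and 56.4%. Land and nanoceria replicate 3 was the highest land library for 146 of the 282 genes that fell, and land replicate 1 for 70. Its median correlation with the other 11 libraries, on log2(CPM + 1) across genes, was the lowest at 0.694. Of the genes that fell, 73 (25.9%) drew over 50% of their land counts from 1 library, against 32 (9.85%) of those that rose in space. The number of genes called went from 607 to 106 without space without gravity replicate 1, 107 without its replicate 3, 213 and 197 without replicates 1 and 3 of space without gravity and nanoceria, 113 and 178 without land replicates 1 and 2, and 208 without land and nanoceria replicate 3. It was 553 without both land libraries numbered 3, and 354 of those were among the 607. With the dominant share as a covariate 38 genes passed, 36 of them among the 607.

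Cells in space with gravity were set beside these values; their comparison uses the same land libraries, so the 2 are not independent, and 1 of the 6 libraries held only 23858 counts. In that comparison 1613 of 11558 genes passed (14.0%; 7.22% higher and 6.74% lower). Carmil1 was at 226 to 2209 CPM there, with a log2 fold change over land of 6.47 ± 0.86, and Ly6e at 11.9 to 57.4 CPM with −2.30 ± 0.37. In the library of 23858 counts, 11.9 CPM is the level of 1 count. Dbf4 had 1.97 ± 0.52 and Cenpq 1.03 ± 0.56 (adjusted p 0.216), against 3.07 and 3.09 without gravity. Jund had −2.04 ± 0.41. The direct test of space without gravity against space with gravity called 0 genes (0.0%; edgeR quasi-likelihood test, smallest adjusted p 0.401, 676 or 5.85% at an unadjusted p under 0.05, 2.09% higher and 3.76% lower), so no gene was shown to differ from land in 1 of the regimes alone.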

How the data were processed

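Poly(A) RNA libraries of 18 C2C12 cultures were made with a kit that does not mark the strand, per the labels' protocols. The files as deposited by the authors hold raw whole-number counts per gene, with no normalization. The submitters' processing notes name CASAVA, Trimmomatic 0.36.29, STAR, Subread, featureCounts and GRCm38.p6. The strand and multiple-mapping settings of the counting are not given in the sources used here.

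Groups followed the labelled class type. Counts were fitted with edgeR 4.0.16 (quasi-likelihood, robust, TMM scaling, R 4.3.3) on all 18 libraries with 6 group means and 12 residual degrees of freedom, after filterByExpr kept 11558 genes. The contrast was the mean of the space without gravity minus land difference at the 2 nanoceria levels, with Benjamini-Hochberg adjusted p under 0.05. Standard errors are the absolute log2 fold change divided by the square root of F. The same steps were tested on simulated counts. Shares of counts were compared by an exact 2-sided permutation test within nanoceria levels. Counting limits cover counting error only.

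Named genes were the 12 coding genes higher and the 12 lower with the smallest p (average log2 CPM of at least 4, same sign at both nanoceria levels), 3 noncoding genes each way, up to 4 members per list with the smallest p, and 20 genes named whatever their values. The comparison, its members and the lists were chosen with earlier results of these data known. Alternatives were DESeq2 1.42.0 size factors and test, limma 3.58.1 voom with quality weights, other filters on low counts, the 12 libraries alone, removal of the smallest library or of the dominant genes, the dominant share as a covariate, and leaving out each library. Removing GC and length trends and leaving out both land libraries numbered 3 were added after seeing the data. Promoter sequences are RefSeq's. The small RNA libraries were not used here, and 2 of the genes chosen by the rule are not reported here.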

Additional observations from a re-analysis of the deposited data

How the results depend on the processing

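No paired analysis was possible because the labels number no cultures, and the numbers used here were given in record order. The averaged comparison, with 607 genes called, gave 1524 with the DESeq2 test, 989 with limma voom, 1466 with no filter on low counts, 358 with only the 12 libraries compared, 38 with the dominant share as a covariate and 387 with GC and length trends removed. Leaving out 1 library gave 106 to 778. Without nanoceria, where 0 were called, the DESeq2 test gave 208, voom 243, no filter 498 and the fit without both land libraries numbered 3 gave 3, and leaving out 1 library gave 0 to 26. With nanoceria, where 5 were called, the DESeq2 test gave 818, no filter 1118, and a mean of at least 50 counts gave 50. Voom, the 12 libraries alone and the covariate each gave 0 there, and leaving out 1 library gave 0 to 111. The dependence on nanoceria, with 0 called, gave 37 with the DESeq2 test and 320 with no filter. The cause was not tested.

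The share of mitochondrial genome counts, space without gravity minus land, was −0.434 points and ranged from −0.566 to −0.247 when 1 library was left out. The lowest value, without land and nanoceria replicate 2, passed the threshold (exact 2-sided permutation p 0.01, adjusted p 0.03). Among log2 fold changes that turned sign, Col3a1 was 0.39 with voom, 0.032 with no filter, 0.0086 with the 12 libraries alone, 0.15 with the covariate and 0.74 without both land libraries numbered 3, and −0.30 to 0.48 when 1 library was left out. Fn1 was −0.24 with DESeq2 size factors and with the DESeq2 test, −0.019 with voom, −0.18 with a mean of at least 50 counts and −0.16 with GC and length trends removed, and −0.18 to 0.19 when 1 library was left out. Mcm6 was 0.36 with voom, 0.010 with no filter and 0.30 without both land libraries numbered 3, and −0.33 to 0.30 when 1 library was left out. Without both land libraries numbered 3, Col8a2 was 1.53, Cxcl5 0.41, Myod1 1.91 and Col1a1 0.19, and Myod1 ranged from −5.36 to 0.82 when 1 library was left out. Xist was −0.0076 with GC and length trends removed, and Vegfa was −0.018 with DESeq2 size factors and with the DESeq2 test. None of these 9 genes was called in the averaged comparison. Over the 157 named genes and the alternatives other than leaving out 1 library, 1367 of 1686 values kept their direction and their side of the threshold, 133 lost the call, 166 gained it and 20 turned sign. At this depth and spread between libraries, 1.49% of 67 simulated 2-fold changes were recovered, in a run that left 11358 genes unchanged.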

Other observations

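Genes of the ATF4 and unfolded protein responses, which raise amino acid synthesis and protein folding capacity under stress, lay mostly above land. Of 33 tested, 27 had a positive log2 fold change, beside 5666 of all 11558 genes. The median was 0.49, and 0.26 with DESeq2 size factors. The edgeR test called 1 (3.03%, near the 2.81% of all genes higher). That gene was Psat1, an enzyme of serine synthesis, at 37.5 to 66.8 CPM in space and 9.44 to 30.4 CPM on land, without overlap (log2 fold change 1.43 ± 0.36, edgeR quasi-likelihood test, adjusted p 0.0334). The chaperone Hspa5 was at 1235 to 2134 CPM in space and spread from 209.6 to 2876 CPM on land (0.44 ± 0.53, adjusted p 0.64). Of 32 hypoxia and glycolysis genes, 24 had a positive value and 3 were called (6.25% higher and 3.13% lower, against 2.81% and 2.44% of all genes). The list median was 0.22, and −0.02 with DESeq2 size factors. Bnip3l, a mitophagy receptor, was at 237 to 787 CPM in space and 43.0 to 239.8 CPM on land and rose by 2.003 ± 0.55 (adjusted p 0.042). The peptide hormone Adm rose (1.45 ± 0.39, adjusted p 0.039), and the glycolytic enzyme Aldoc fell by 2.12 ± 0.53 on the log2 scale (adjusted p 0.0314). Over the 12 fits that left out 1 library, the call was lost in 7 for Psat1, 8 for Bnip3l, 9 for Adm and 8 for Aldoc.

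Map1lc3a, a protein of autophagosome membranes, was at 5.39 to 22.2 CPM in space and 28.9 to 93.4 CPM on land, without overlap, and was the member called of 32 lysosome and autophagy genes (−1.96 ± 0.44, adjusted p 0.0215). The small heat shock protein Hspb1 was at 8.91 to 19.1 CPM in space and 18.4 to 80.1 CPM on land and was the member called of 23 chaperone genes (−1.70 ± 0.48, adjusted p 0.0469). Over the 12 fits that left out 1 library, the call was lost in 4 for Map1lc3a and 10 for Hspb1. None of 16 circadian clock genes was called by the edgeR test, with 2 higher and 3 lower at an unadjusted p under 0.05.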
